A study of Drosophila melanogaster with 18 samples.

Results

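GstE1 to GstE9 are 9 glutathione transferase genes of the epsilon class that lie side by side on 1 strand of chromosome arm 2R of Drosophila melanogaster. GstE10, of the same class, adjoins them on the opposite strand and is not among the 9. They were taken as the rows of the 18 deposited expression tables that carry these 9 symbols, out of 17658 genes listed. Messenger RNA was measured in whole females aged 1 to 5 days, which were kept at 25 °C on food made with mashed potato and pooled 10 to a library. Control flies carried the UAS-Tudor-SN RNAi transgene (Bloomington #34865) with no driver (w;;+/UAS-Tudor-SN RNAi), and knockdown flies carried the same transgene under the ubiquitous Daughterless driver (w;;Da-GAL4/UAS-Tudor-SN RNAi). Both genotypes were either left at normal atmospheric oxygen (normoxia here) or held for 6 h at 6% O2 or at 2% O2, which gives 6 groups of 3 biological replicates. All knockdown flies came from 1 RNAi line, and a group carrying only Da-GAL4 was not analysed here, which means that effects of the driver and of losing Tudor-SN cannot be told apart.

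Glutathione transferases join the tripeptide glutathione to reactive, electrophilic compounds, which makes these compounds more soluble and easier to export. The epsilon and delta classes are specific to arthropods, have expanded into gene clusters in insects, and are best known for the breakdown of insecticides such as DDT and of the aldehydes that lipid peroxidation releases. In flies many of these genes are induced through the Keap1-cnc pathway, in which the transcription factor cnc, the fly counterpart of Nrf2, is held down by Keap1 until the cell meets oxidants or electrophiles. Tudor-SN is a conserved nuclease-domain protein that has been linked to RNA interference, RNA stability and stress granules.

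The level of a gene is given as the authors' FPKM, a fragment count normalised for transcript length and library size, divided by a factor for each library (0.945 to 1.034). Differences are on the scale of log2(scaled FPKM + 1), with standard errors and with adjusted p-values from limma over 9921 genes, and a gene was called at an adjusted p under 0.05. The depth recovered from the steps between low values was about 18300000 reads in knockdown 2% O2 replicate 3 and 20100000 to 21100000 in the other 17 libraries. That library also stood apart from the other 2 of its group on the second principal component, and values without it are given below beside the comparisons, sums and correlations that use it. Tudor-SN itself averaged 214 (± 4.15 SD), 217 (± 3.22) and 168 (± 6.57) scaled FPKM in control flies in normoxia, 6% O2 and 2% O2, and 19.9 (± 1.44), 15.9 (± 2.20) and 5.57 (± 0.450) in knockdown flies (n = 3 each). No marker of male accessory gland or testis passed 0.671 scaled FPKM in any library, and the yolk and ovary markers were all present.

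The 9 genes are all on the plus strand of 2R and fill 11.4 kb of the BDGP6 build, from the start of GstE1 (FBgn0034335, 18398393 to 18399223) to the end of GstE9 (FBgn0063491, 18409048 to 18409835). Each is a single exon in the Ensembl annotation, a structure shared by 15.3% of 13986 protein-coding genes. After GstE1 come GstE2 (FBgn0063498, 18399486 to 18400375), GstE3 (FBgn0063497, 18400713 to 18401467), GstE4 (FBgn0063496, 18403248 to 18404086) and GstE5 (FBgn0063495, 18404605 to 18405338). They are followed by GstE6 (FBgn0063494, 18406011 to 18406761), GstE7 (FBgn0063493, 18406924 to 18407688) and GstE8 (FBgn0063492, 18407834 to 18408955). The space between neighbours is 92 bp at its smallest, between GstE8 and GstE9, and 1780 bp at its largest, between GstE3 and GstE4. The first 127 bp of GstE1 overlap GstE10 on the opposite strand and the last 40 bp of GstE9 overlap imd, and the labels do not say whether libraries kept the strand, so reads in those stretches could belong to either gene. How reads shared by these related genes were assigned is not given in the sources used here.

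In control flies in normoxia the members differed widely in level, with a pair of abundant transcripts and a tail of scarce ones. GstE6 was the most abundant at 211 scaled FPKM (± 2.21 SD, n = 3), followed by GstE1 at 110.1 (± 5.28), whose enzyme is known to conjugate the lipid peroxidation product 4-hydroxynonenal. GstE9 (45.1 ± 5.88), GstE8 (37.3 ± 2.18), GstE7 (33.2 ± 1.59) and GstE3 (26.8 ± 4.97) formed the middle. GstE5 (10.0 ± 1.51), GstE4 (9.20 ± 3.53) and GstE2 (3.75 ± 0.765) were the lowest. The relative SD in this group ran from 1.05% for GstE6 to 38.4% for GstE4 and did not follow the level throughout, with 20.4% for GstE2, the scarcest member. GstE2 rested on an estimated 24 to 60 reads in a library and GstE4 on 45 to 167, against 2260 to 3252 for GstE6.

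**Figure D1:**
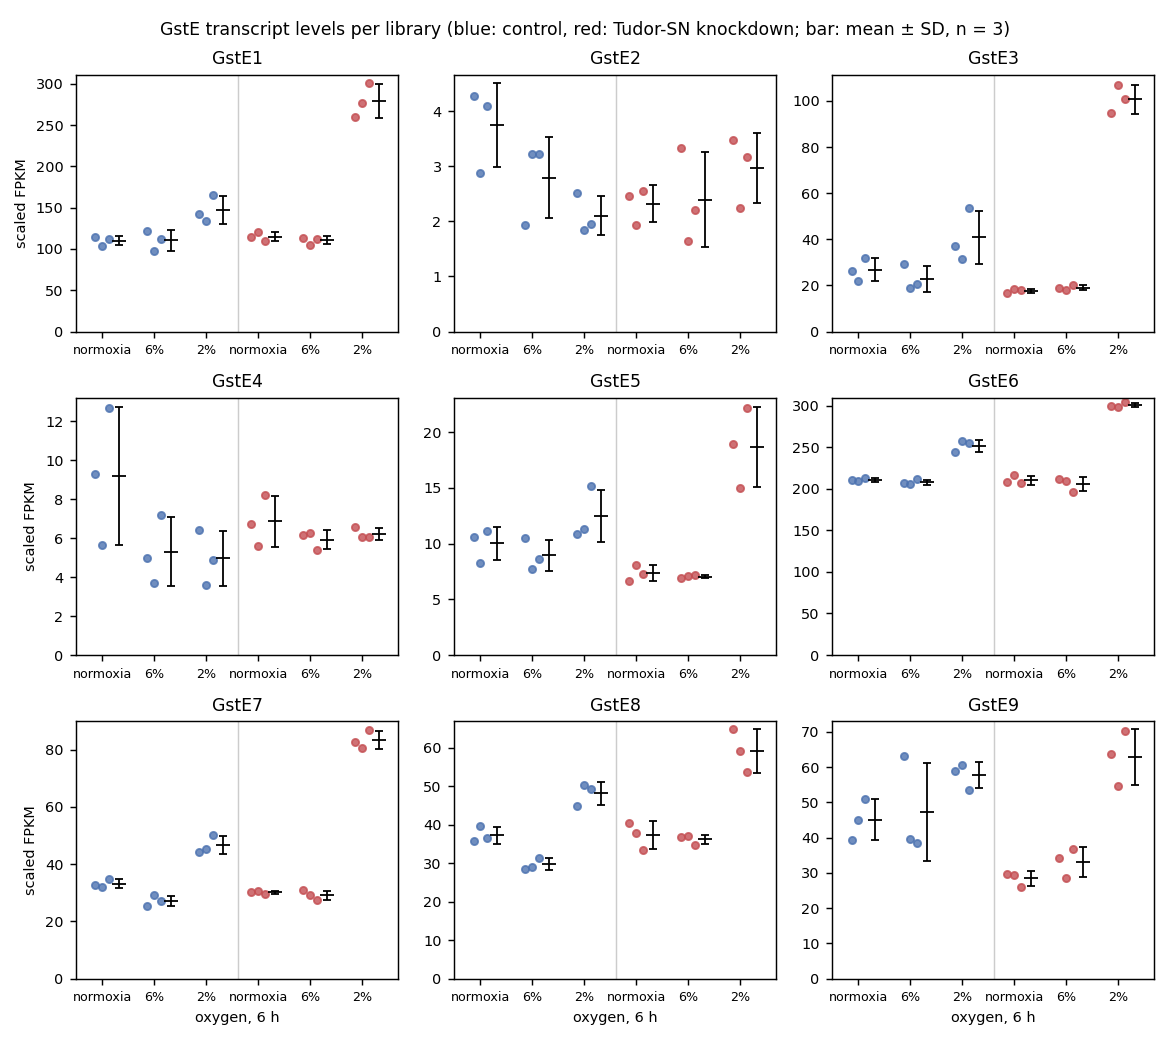
Scaled FPKM of the 9 GstE genes in each of 18 libraries (points), by oxygen level on the x axis, in control (blue) and knockdown (red) flies, with the mean and SD of each group of 3 beside the points. In knockdown flies at 2% O2, GstE1, GstE3, GstE6, GstE7 and GstE8 stood above all libraries of the other 5 groups, while GstE2 and GstE4 did not. The share of all genes that did so was not computed. Knockdown groups at 2% O2 and in normoxia did not overlap, in either direction, for 62.3% of all genes tested.

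At 2% O2, control flies had more transcript of both abundant members, GstE6 and GstE1, and of GstE3, GstE7 and GstE8, and less of GstE2 and GstE4. Of the 9 members 5 rose (GstE1, GstE3, GstE6, GstE7 and GstE8) and 2 fell (GstE2 and GstE4), against 30.1% of all genes tested called in either direction. The median difference of the members was 0.36 on the log2 scale, beside -0.01 over all genes.

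GstE7 was at 32.7, 31.8 and 34.9 scaled FPKM in the control normoxia libraries and at 44.2, 45.4 and 50.1 in the control 2% O2 libraries. The groups did not overlap, and GstE7 rose 1.404-fold (log2 difference 0.48, SE 0.060, adjusted p = 3.12e-05, limma). GstE6 was at 210.4, 209 and 213 in normoxia and at 244, 257 and 255 at 2% O2. Its increase of 1.20-fold was small but stood well clear of the tight spread of the replicates (log2 difference 0.26, SE 0.038, adjusted p = 0.00013). GstE8 rose 1.29-fold, from 35.7, 39.8 and 36.4 to 44.8, 50.3 and 49.3 (0.36, SE 0.077, adjusted p = 0.00222). GstE1 was at 114, 104 and 112 in normoxia and at 143, 133 and 166 at 2% O2, without overlap (1.34-fold, log2 difference 0.41, SE 0.086, adjusted p = 0.0019).

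GstE3 was at 26.3, 22.1 and 32.0 scaled FPKM in control normoxia libraries and at 37.3, 31.6 and 53.7 in control 2% O2 libraries. The third 2% O2 library was far above the others, the lowest 2% O2 library was within the normoxia range, and the difference was 0.57 (SE 0.18, adjusted p = 0.0259). GstE2 was at 4.28, 2.87 and 4.10 in normoxia and at 2.51, 1.85 and 1.95 at 2% O2, so that its groups did not overlap (log2 difference -0.61, SE 0.19, adjusted p = 0.0268). GstE4 was at 9.27, 5.63 and 12.7 in normoxia and at 6.43, 3.60 and 4.87 at 2% O2, with overlapping groups (-0.74, SE 0.24, adjusted p = 0.0317).

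GstE5 and GstE9 were not called in control flies at 2% O2. GstE5 was at 10.6, 8.30 and 11.2 in normoxia and at 10.9, 11.3 and 15.2 at 2% O2 (log2 difference 0.28, 95% interval -0.03 to 0.60, SE 0.15, adjusted p = 0.168). GstE9 was at 39.2, 45.0 and 51.0 in normoxia and at 59.0, 60.5 and 53.5 at 2% O2 (0.35, 95% interval 0.01 to 0.70, SE 0.16, adjusted p = 0.116). The GstE9 libraries at 2% O2 were all above those in normoxia, as in 44.0% of all genes for this pair of groups in either direction.

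The calls of GstE2, GstE3 and GstE4 in control flies rested on single libraries. Without control normoxia replicate 1 or 3, or without control 2% O2 replicate 2 or 3, neither GstE2 (-0.53, -0.55, -0.55 and -0.58) nor GstE4 (-0.70, -0.50, -0.57 and -0.74) was called, and GstE3 was not called without control normoxia replicate 1 or 2 or without control 2% O2 replicate 3 (0.56, 0.44 and 0.36). The members called went from 7 to 4 without control normoxia replicate 1 and likewise without control 2% O2 replicate 3.

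Over the same step the summed level of 7 fat body markers was 960 to 1170 scaled FPKM in control normoxia and 1560 to 1784 at 2% O2, with 4 of 6 tested markers higher and none lower. Of all genes tested 30.1% were called in either direction. The largest part of the fat body sum was Desat1, with means of 626 and 1136, while the mean of apolpp went from 66.7 to 48.3. The 6 tested included Lsp2, which reached the average of 1 FPKM needed for testing only through the 2% O2 groups. Its means in normoxia and at 6% O2 were 0.425 and 0.534 in control and 0.924 and 0.969 in knockdown flies. At 2% O2 they were 2.665 and 3.99. The same limit holds for the fat body counts below. The summed level of 10 Malpighian tubule markers was 178 to 205 in normoxia and 236 to 243 at 2% O2, with 2 of 9 tested markers higher and 3 lower. Among these markers the urate oxidase gene Uro went from 4.95 to 80.0, a larger step than that of the whole sum. The midgut sum was 2953 to 3719 and 3086 to 3232, with 3 of 7 tested markers higher and 1 lower. No marker of these lists was at 0 in every library, and the part of these tissues in the GstE result was not tested. In whole flies, fewer cells of a type and less RNA in each cell cannot be told apart.

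In knockdown flies the rise at 2% O2 took in 7 of the 9 members, with GstE3 the largest at 5.72-fold. The 7 that rose were GstE1, GstE3, GstE5, GstE6, GstE7, GstE8 and GstE9, and none fell, against 28.5% of all genes tested called higher and 55.4% called in either direction. The median difference of the members was 1.11 beside 0.00 over all genes. All 7 stayed called when any 1 of the 6 libraries was left out, knockdown 2% O2 replicate 3 included, without which GstE3 rose by 2.45, GstE7 by 1.41, GstE1 by 1.22, GstE5 by 1.10, GstE9 by 1.03, GstE8 by 0.72 and GstE6 by 0.51.

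GstE3 was at 16.6, 18.3 and 17.9 scaled FPKM in the knockdown normoxia libraries and at 94.6, 106.9 and 100.7 in the knockdown 2% O2 libraries. The rise was 2.45 on the log2 scale (SE 0.18, adjusted p = 5.5e-08, limma), and 1.37% of all genes tested had a larger difference in either direction. GstE7 went from 30.3, 30.6 and 29.6 to 82.8, 80.6 and 86.8 (2.77-fold, log2 difference 1.44, SE 0.060, adjusted p = 1.13e-10). GstE1 went from 114, 121 and 109 to 260.1, 276 and 301 (2.43-fold, 1.27, SE 0.086, adjusted p = 1.28e-08). These 3 genes had tight replicates on both sides and wide gaps between the groups.

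GstE5 was at 6.69, 8.10 and 7.30 in knockdown normoxia and at 19.0, 15 and 22.2 at 2% O2 (2.54-fold, log2 difference 1.22, SE 0.15, adjusted p = 5.4e-06). GstE9 was at 29.8, 29.4 and 26 in normoxia and at 63.8, 54.5 and 70.2 at 2% O2 (2.21-fold, 1.11, SE 0.16, adjusted p = 4.43e-05). GstE8 was at 40.6, 37.8 and 33.5 in normoxia and at 65, 59.1 and 53.6 at 2% O2 (1.59-fold, 0.65, SE 0.077, adjusted p = 4.09e-06). None of these 3 genes had overlapping groups, which held for 62.3% of all genes tested in either direction. GstE6, the most abundant member, had the smallest fold among the 7, from 208, 217 and 206 to 299, 299 and 304 (1.43-fold, 0.51, SE 0.038, adjusted p = 3.5e-08).

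GstE2 and GstE4 again stood aside. GstE2 was at 2.46, 1.94 and 2.56 in knockdown normoxia and at 3.47, 2.25 and 3.17 at 2% O2 (log2 difference 0.25, 95% interval -0.17 to 0.66). GstE4 was at 6.74, 5.61 and 8.23 in normoxia and at 6.55, 6.04 and 6.03 at 2% O2 (-0.11, 95% interval -0.63 to 0.41). Both had overlapping groups. The fat body marker sum in knockdown flies was 1051 to 1119 in normoxia and 1637 to 2228 at 2% O2, with 4 of 6 tested markers higher and 1 lower. Of all genes tested 55.4% were called in either direction. Within that sum the mean of Desat1 went from 654 to 1437 and that of apolpp from 61.85 to 39.4. Lsp2 was again among the 6 tested only through the 2% O2 groups. The Malpighian tubule sum was 165 to 190 and 238 to 285, with 3 of 9 higher and 3 lower and with Uro at 10.7 and 99.1. The midgut sum was 1650 to 2529 and 2209 to 3136, with 3 of 7 tested markers higher and none lower. The part of these tissues was not tested here either.

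The response to 2% O2 was larger in knockdown than in control flies for 5 members when the difference between the responses was itself tested, against 5.43% of all genes tested called higher and 7.64% called in either direction. GstE3 responded more strongly by 1.88 on the log2 scale (SE 0.25, adjusted p = 0.00102, limma), GstE7 by 0.96 (SE 0.085, adjusted p = 2.74e-05), GstE5 by 0.94 (SE 0.21, adjusted p = 0.0152), GstE1 by 0.86 (SE 0.12, adjusted p = 0.00115) and GstE6 by 0.26 (SE 0.054, adjusted p = 0.0109). Every one of these 5 differences stayed called with any single library left out, and without knockdown 2% O2 replicate 3 they were 1.88, 0.93, 0.81, 0.81 and 0.25 in that order. The GstE6 difference was 0.14 and not called under quantile normalisation (adjusted p = 0.156). GstE2 (0.86, 95% interval 0.27 to 1.44), GstE9 (0.76, 0.27 to 1.25), GstE4 (0.63, -0.11 to 1.36) and GstE8 (0.29, 0.06 to 0.53) missed the threshold with estimates on the same side of 0. In the same test 1 of 7 tested midgut markers was called, as higher, with a median of 0.71 over the list, beside 0.86 for the GstE genes. For Malpighian tubule markers it was 2 of 9, both higher (median 0.14), for yolk and ovary markers 1 of 7, lower (median 0.48), and for fat body markers 0 of 6 (median 0.04). The part of these tissues was not tested.

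**Figure D2:**
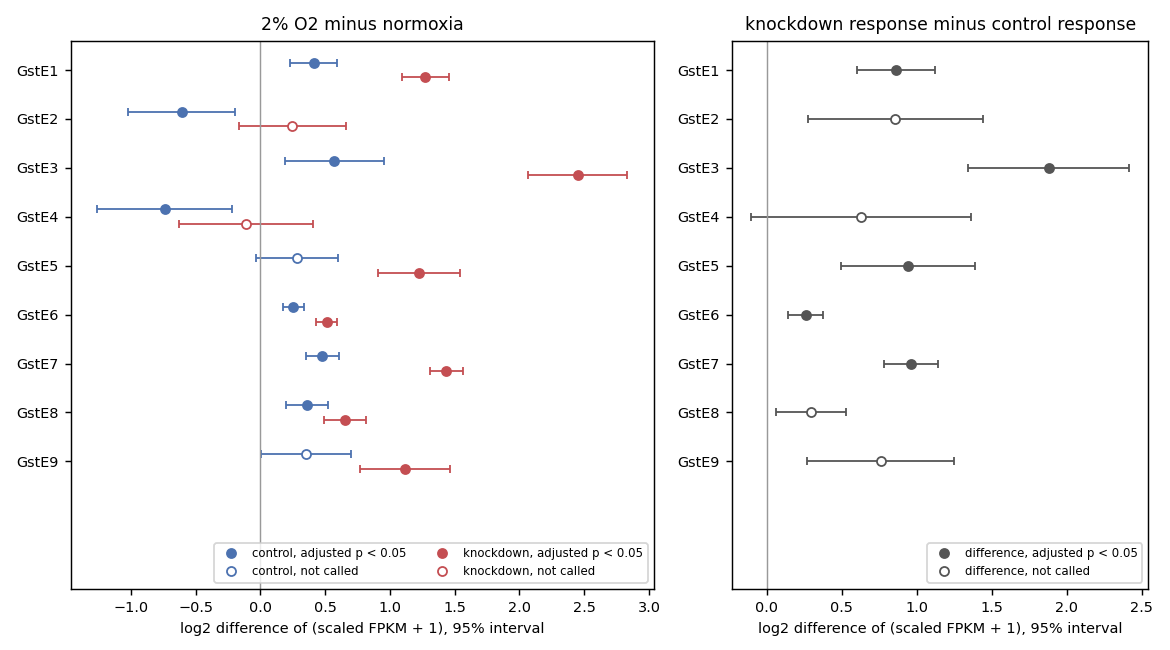
Log2 difference between 2% O2 and normoxia for each GstE gene in control (blue) and knockdown (red) flies on the left, and the knockdown response minus the control response on the right, with 95% intervals and filled points for an adjusted p under 0.05. GstE3 has the largest response in knockdown flies, 2.45, and the largest difference between genotypes, 1.88.

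Set directly against each other at 2% O2, knockdown flies had more of 6 members than control flies, against 11.7% of all genes tested called higher and 20.2% called in either direction. This comparison uses the same 2% O2 libraries as the responses above, so it is the same libraries seen from another side. GstE3 was 2.47-fold higher (log2 difference 1.31, SE 0.18, adjusted p = 0.000196, limma), GstE1 1.89-fold (0.92, SE 0.086, adjusted p = 6.14e-06) and GstE7 1.79-fold (0.83, SE 0.060, adjusted p = 4.1e-07). GstE5 was 1.5-fold higher (0.55, SE 0.15, adjusted p = 0.0171), GstE8 1.23-fold (0.29, SE 0.077, adjusted p = 0.0151) and GstE6 1.19-fold (0.25, SE 0.038, adjusted p = 0.00031). The GstE5 groups overlapped, while 35.1% of all genes tested had groups without overlap in either direction. GstE9 was not called at 2% O2 (57.7 ± 3.66 in control and 62.9 ± 7.89 in knockdown, log2 difference 0.12, 95% interval -0.23 to 0.46). GstE5 was not called without control 2% O2 replicate 1 or 2 or knockdown 2% O2 replicate 1 or 3 (0.46, 0.49, 0.53 and 0.42), and GstE8 was not called without replicate 1 of either group (0.24 and 0.22). Without knockdown 2% O2 replicate 3 the other 5 members stayed called, with GstE3 at 1.31, GstE1 at 0.86, GstE7 at 0.80, GstE8 at 0.36 and GstE6 at 0.25. Between these groups 3 of 7 yolk and ovary markers were higher and none lower (summed level 2921 to 3726 in control and 3937 to 5924 in knockdown flies). Of the Malpighian tubule markers 2 of 9 were higher and 2 lower, and of the photoreceptor markers 2 of 5 were lower and none higher (1910 to 2108 and 1867 to 2049). No midgut or fat body marker was called, and the part of these tissues was not tested.

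In normoxia knockdown flies had less GstE3 and less GstE9, and none of the 9 was higher. Single libraries moved this count of 2 called members between 0 and 4, as given below. Of the 2, only GstE3 was also called at 2% O2, as higher. All genes tested were called in 16.0% of cases in either direction and in 10.1% as lower, and the median of the members was -0.33 beside -0.01 over all genes. GstE9 was at 39.2, 45.0 and 51.0 scaled FPKM in control libraries and at 29.8, 29.4 and 26 in knockdown libraries, without overlap (log2 difference -0.64, SE 0.16, adjusted p = 0.0178, limma). GstE3 was at 26.3, 22.1 and 32.0 in control and at 16.6, 18.3 and 17.9 in knockdown libraries, also without overlap (-0.56, SE 0.18, adjusted p = 0.0451).

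The other 7 members were not called in normoxia, though GstE2, GstE5 and GstE7 had every knockdown library below every control library. Groups that did not overlap in either direction were found in 40.6% of all genes tested. GstE2 differed by -0.51 (SE 0.19, adjusted p = 0.084, limma), GstE5 by -0.39 (SE 0.15, adjusted p = 0.0825) and GstE7 by -0.13 (SE 0.060, adjusted p = 0.14). The remaining estimates were -0.33 for GstE4 (SE 0.24, adjusted p = 0.353) and 0.06 for GstE1 (SE 0.086, adjusted p = 0.65). GstE6 differed by -0.0031 (SE 0.038, adjusted p = 0.963, 95% interval -0.09 to 0.08), a sign that turned with FPKM as deposited and with quantile normalisation. GstE8 differed by -0.0024 (SE 0.077, adjusted p = 0.989, 95% interval -0.17 to 0.16), a sign that turned with FPKM as deposited.

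The GstE3 call in normoxia was also lost with a pseudocount of 5, with no filter and with quantile normalisation. GstE9 lost its call in normoxia without control replicate 3 (-0.55) or knockdown replicate 3 (-0.58), and GstE3 without any of the 6 libraries other than control replicate 2 (-0.43 without control replicate 3). Without control replicate 2, GstE2 (-0.65) and GstE5 (-0.51) were called too, so that single libraries moved the count of called members between 0 and 4. The summed level of 8 midgut markers was 2953 to 3719 in control and 1650 to 2529 in knockdown flies in normoxia, with 5 of 7 tested markers lower and none higher. Photoreceptor markers came to 1400 to 1947 and 1348 to 1526, with 3 of 5 lower and none higher, and Malpighian tubule markers to 178 to 205 and 165 to 190, with 3 of 9 lower and none higher. For this pair of groups 10.1% of all genes tested were called lower. No marker of these lists was at 0 in every library, and the part of these tissues was not tested.

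At 6% O2 no member was called against normoxia in either genotype. In control flies this held for the whole table, where 0% of all genes were called by limma (1329 genes and 3 members, GstE4, GstE7 and GstE8, had an unadjusted p under 0.05). GstE8 was at 28.4, 29.1 and 31.4 scaled FPKM at 6% O2, below all 3 control normoxia libraries (log2 difference -0.32, adjusted p = 0.12, limma). GstE7 was at 25.5, 29.1 and 27.0, also below all of them (-0.28, adjusted p = 0.119). Groups without overlap were found in 15.9% of all genes tested for this pair. In knockdown flies none of the 9 was called, against 0.625% of all genes, and none had an unadjusted p under 0.05. The difference between the responses to 6% O2 was not called for any of the 9 or for any other gene (0%), with 1017 genes and 2 members under an unadjusted p of 0.05.

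Between genotypes at 6% O2, GstE8 was higher and GstE9 lower in knockdown flies, against 24.7% of all genes called in either direction. GstE8 was at 36.8, 37.0 and 34.8 in knockdown libraries (1.22-fold, log2 difference 0.28, SE 0.077, adjusted p = 0.0193, limma). GstE9 was at 63.3, 39.7 and 38.6 in control and at 34.1, 28.4 and 36.8 in knockdown libraries (-0.47, SE 0.16, adjusted p = 0.0484). Control replicate 1 was above the other 5 libraries by a wide gap, and without it the GstE9 difference was -0.24 and not called. The GstE9 call was lost under 6 of the 8 alternatives that kept every library: the compared groups alone (adjusted p = 0.154, limma), a replicate block (adjusted p = 0.0535, limma), quantile normalisation, unscaled FPKM, a pseudocount of 5 and no filter on low values. GstE9 was also not called without any single knockdown library (-0.49, -0.37 and -0.55), and GstE8 was not called without control replicate 1 (0.25) or knockdown replicate 2 (0.26). The midgut marker sum was 2514 to 4689 in control and 2011 to 2222 in knockdown flies at 6% O2, with 4 of 7 tested markers lower and none higher. Photoreceptor (4 of 5), Malpighian tubule (3 of 9) and fat body markers (2 of 6) were also lower there, with none higher, and the part of these tissues was not tested.

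Averaged over the 3 oxygen levels, 4 members were higher and 1 was lower in knockdown flies, against 41.7% of all genes called in either direction. The 4 were GstE1 (0.33, SE 0.050, adjusted p = 0.000144, limma), GstE7 (0.26, SE 0.035, adjusted p = 4.8e-05), GstE8 (0.19, SE 0.045, adjusted p = 0.00367) and GstE6 (0.08, SE 0.022, adjusted p = 0.0109). GstE9 was lower (-0.33, SE 0.094, adjusted p = 0.0115). Without knockdown 2% O2 replicate 3 the 5 stayed called, at 0.31, 0.25, 0.21 and 0.08 for the first 4 in that order and at -0.36 for GstE9. This average uses all 18 libraries, and the values at each oxygen level above show how far it mixes unlike differences.

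Ordered by group mean, the knockdown 2% O2 libraries held the first place for 7 of the 9 members and the control 2% O2 libraries the second place for the same 7. GstE2 and GstE4 had their highest mean in control normoxia and their lowest in control 2% O2. For GstE7 and GstE8, 2 of the 5 neighbouring pairs in that order overlapped, for GstE1 and GstE6 3 of 5, for GstE3 and GstE9 4 of 5, and for GstE2, GstE4 and GstE5 all 5. GstE1, GstE6, GstE7 and GstE8 each had every library in normoxia and at 6% O2 below every library at 2% O2. The share of all genes with this wider split was not computed. For 2% O2 against normoxia alone, groups without overlap in either direction were found in 44.0% of all genes in control and 62.3% in knockdown flies.

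Added together, the 9 transcripts came to 483, 468 and 507 scaled FPKM in control normoxia and to 592, 595 and 649 in control 2% O2. In knockdown flies the sum was 456, 469 and 441 in normoxia and 894, 899 and 947 at 2% O2. The sum was thus 1.26-fold higher at 2% O2 in control flies and 2.01-fold higher in knockdown flies, while at 6% O2 it was 462 (± 28.6 SD) and 449 (± 11.9). In knockdown flies GstE6 made up 46.2% (± 0.578 SD) of the sum in normoxia and 32.9% (± 0.741) at 2% O2, GstE1 25.2% (± 0.475) and 30.5% (± 1.35), and GstE3 3.87% (± 0.212) and 11.03% (± 0.744). In control flies GstE6 made up 43.4% (± 1.29) in normoxia and 41.2% (± 1.98) at 2% O2. Without knockdown 2% O2 replicate 3 the knockdown sum at 2% O2 was 897, or 1.97-fold that in normoxia, and the shares of GstE6, GstE1 and GstE3 were 33.3%, 29.9% and 11.2%. These sums and shares are descriptions and were not tested.

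**Figure D3:**
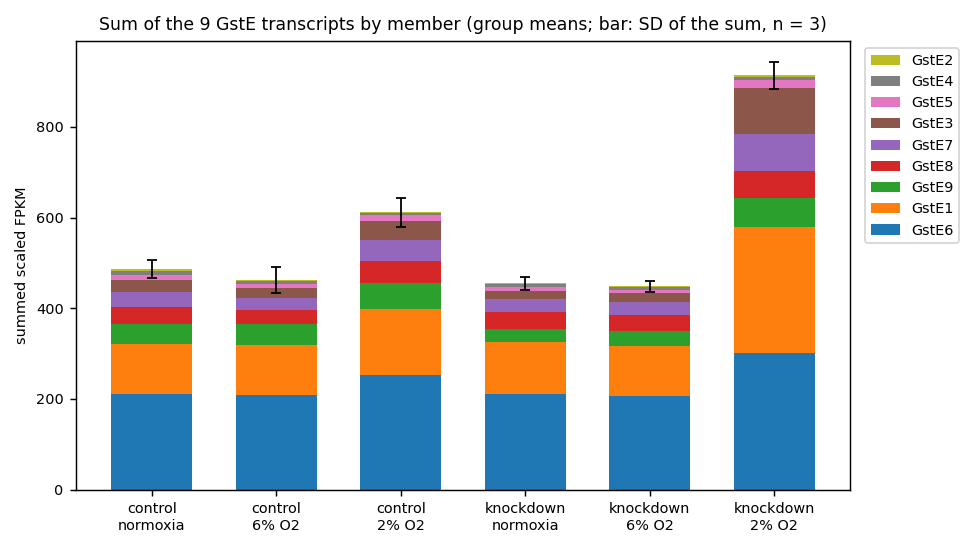
Summed scaled FPKM of the 9 GstE genes, stacked by gene as group means, with the SD of the sum over 3 libraries as bars. The sum is between 449 and 486 in the 4 groups in normoxia and at 6% O2, and 612 and 914 in the control and knockdown 2% O2 groups.

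The response had no simple order along the cluster. GstE3, with the largest rise in knockdown flies, lies between GstE2 and GstE4, neither of which was called there. GstE6 and GstE7 are 162 bp apart and rose by 0.51 and 1.44. Of 8 tested genes around the cluster, 1 rose and 1 fell in control flies at 2% O2, where 30.1% of all genes tested were called in either direction. In knockdown flies 4 of the 8 rose and 3 fell, where 55.4% of all genes tested were called. The gene imd, which encodes the adaptor of the Imd immune pathway and overlaps the end of GstE9 on the other strand, was at 10.1, 10.1 and 10.5 scaled FPKM in control normoxia and at 17.2, 17.7 and 20.4 in control 2% O2. It rose by 0.79 (SE 0.11, adjusted p = 6.33e-05, limma) in control and by 1.503 (adjusted p = 2.55e-08) in knockdown flies, and more in the latter (difference 0.72, adjusted p = 0.012). GstE10, which overlaps GstE1, was called in knockdown flies (0.54, adjusted p = 0.0319) and not in control flies (-0.01, adjusted p = 0.977), and its difference between genotypes was not called (0.55, adjusted p = 0.234). Dp1, a KH-domain protein gene on the GstE9 side, fell by 0.41 in control flies (adjusted p = 5.01e-05) and by 0.74 in knockdown flies (adjusted p = 3.21e-08). In knockdown flies CG15068 (1.35, adjusted p = 0.0268, limma) and Idgf5 (0.75, adjusted p = 0.00562) also rose and PIG-O (-0.32, adjusted p = 0.000311) and CG5174 (-0.11, adjusted p = 0.039) fell, whereas CG15065 was not called (1.07, adjusted p = 0.163). CR43687 and CR43688, annotated in the gap between GstE3 and GstE4, did not exceed 0.675 scaled FPKM in any library.

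**Figure D4:**
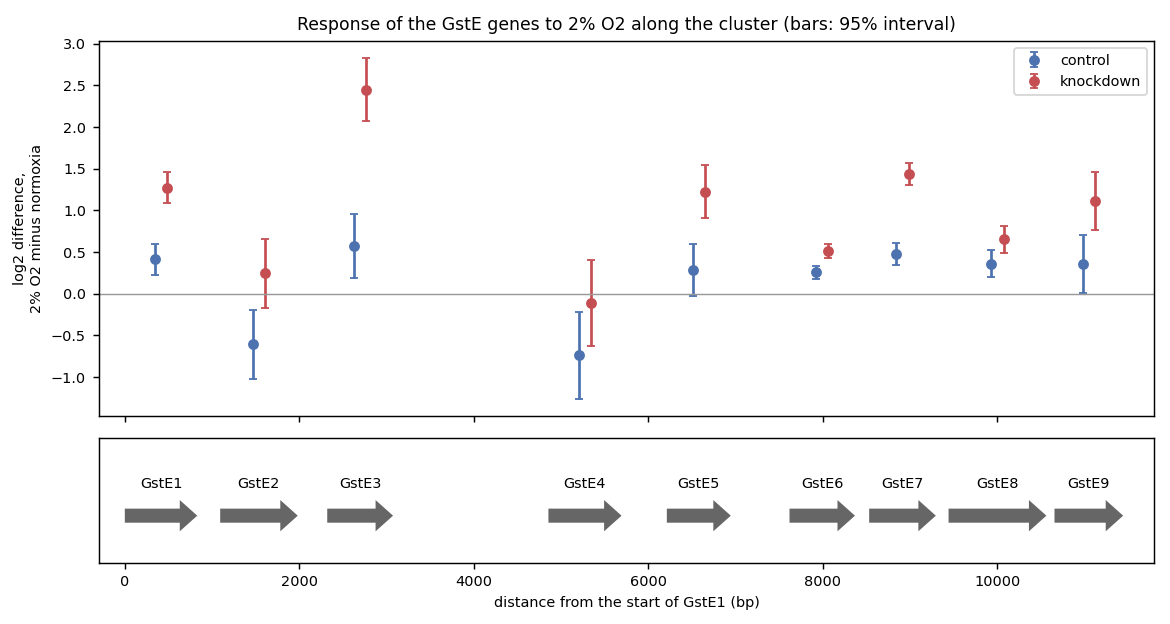
Log2 difference between 2% O2 and normoxia (points, with 95% intervals) in control (blue) and knockdown (red) flies, placed at the middle of each GstE gene, above a map of the 9 genes drawn as arrows to scale in bp from the start of GstE1. GstE2 and GstE4 lie below 0 in control flies, on either side of GstE3 with its knockdown value of 2.45.

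Across the 18 libraries, 9 of the 36 pairs of members had a Pearson r of log2 levels above 0.9. The closest were GstE6 and GstE7 (r = 0.983, Spearman rho = 0.858), GstE1 and GstE7 (0.961, 0.674), and GstE1 and GstE3 (0.958, 0.719). These points share 6 group means, so r mostly follows the 2% O2 groups. With the group means removed, the median r over the 36 pairs was 0.11, from -0.295 to 0.799. The highest of these within-group values was that of GstE1 and GstE3 (0.799), followed by GstE1 and GstE5 (0.733), whereas GstE1 and GstE7 were at 0.14. Without knockdown 2% O2 replicate 3, 9 pairs were again above 0.9, GstE6 and GstE7 were at 0.977, and the within-group value of GstE1 and GstE3 was 0.851. GstE2 and GstE4 were the members least like the others, and GstE2 had an r of 0.029 with GstE1 and GstE4 one of -0.062.

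The genes most like each member over the 18 libraries, by Pearson r, were mostly outside the family. GstE7 was an exception, since its nearest gene of all those tested was its neighbour GstE6 (0.983). For GstE1 the nearest were CG31272 (0.984) and kraken (0.972), for GstE3 stv (0.98), a BAG-domain co-chaperone gene, and IP3K2 (0.976), an inositol trisphosphate kinase gene. For GstE5 they were IP3K2 (0.971) and Rhp (0.97), for GstE6 Exo84 (0.985), an exocyst subunit gene, and trbl (0.983), for GstE8 CG2540 (0.96), and for GstE9 CG5171 (0.952) and modSP (0.951). By this measure GstE2 and GstE4 had no gene as close, with CG43680 (0.777) and Obp28a (0.803), an odorant-binding protein gene, as their nearest. With the group means removed, these 2 pairs were at 0.619 and 0.785. The nearest genes of the other members then ran from 0.493 (GstE8 and CG2540) to 0.834 (GstE9 and CG5171). The mean of the 9 members was most like IP3K2 (0.977), CG31272 (0.97), Rhp (0.969), CG30357 (0.968) and stv (0.966). CG30357 was scarce and was among the genes tested only through the 2% O2 groups, where it averaged 2.28 in control and 5.54 in knockdown flies. In normoxia and at 6% O2 it averaged 1.149 and 1.095 in control and 0.849 and 0.815 in knockdown flies. CG31272 averaged 4.12 scaled FPKM (± 0.637 SD) in control normoxia and 6.56 (± 1.21) at 2% O2, and 3.70 (± 0.502) and 19.1 (± 1.02) in knockdown flies.

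The rest of the epsilon class is set beside the cluster here. Of the 5 epsilon genes GstE10 to GstE14, none rose and 1 fell in control flies at 2% O2, 2 rose and 1 fell in knockdown flies, and none was called in the difference between responses. All genes tested were called in 30.1%, 55.4% and 7.64% of cases in these comparisons, in either direction. GstE14, also known as nobo and needed in ecdysteroid synthesis, fell in control flies (2.86 to 1.73 scaled FPKM, log2 difference -0.50, SE 0.13, adjusted p = 0.00845, limma) and by 0.57 in knockdown flies (adjusted p = 0.00143). In normoxia GstE12 (-0.36, SE 0.081, adjusted p = 0.0093, limma) and GstE13 (-0.16, SE 0.049, adjusted p = 0.0407) were lower in knockdown flies, and none of the 5 was higher. Of all genes tested 16.0% were called in either direction there and 10.1% as lower. The medians of these 5 genes at 2% O2 were -0.07 in control and 0.13 in knockdown flies, beside 0.36 and 1.11 for GstE1 to GstE9.

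Of 11 delta genes 8 were expressed enough to be tested, and GstD5 and GstD8 were among them only through the 2% O2 groups, since each averaged under 1 scaled FPKM in the groups in normoxia and at 6% O2. Over the other 6, 4 rose and 1 fell in control flies at 2% O2 and 5 rose in knockdown flies, with medians of 0.70 and 1.29, and 3 responded more strongly in knockdown flies, beside the shares of all genes just given. GstD2 went from 3.72 to 39.6 scaled FPKM in control flies (log2 difference 3.06, SE 0.23, adjusted p = 3.22e-07, limma) and from 7.83 to 87.1 in knockdown flies, and the difference between its responses was 0.26 (adjusted p = 0.639). GstD5 averaged 0.733 in control normoxia and 7.48 at 2% O2, and 0.547 and 25.6 in knockdown flies, and GstD8 0.961 and 2.95, and 0.733 and 5.97. These levels of GstD5 and GstD8 are a description, given with no test. GstD10 went from 1.64 to 6.47 in control flies (1.49, SE 0.17, adjusted p = 1.14e-05) and was not called for a difference between responses (0.80, adjusted p = 0.0525). In normoxia 3 of the 6 delta genes other than GstD5 and GstD8 were higher in knockdown flies and none was lower, beside 16.0% of all genes tested called in either direction. They were GstD2 (0.89, SE 0.23, adjusted p = 0.0177, limma), GstD10 (0.60, SE 0.17, adjusted p = 0.0265) and GstD3 (0.29, SE 0.055, adjusted p = 0.00387).

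Among 12 genes of the theta, sigma, omega, zeta and microsomal classes, 1 rose and 4 fell in control flies at 2% O2, and 4 rose and 2 fell in knockdown flies, so that 5 and 6 of 12 were called beside 30.1% and 55.4% of all genes tested. GstT4, of the theta class, rose from 57.4 to 126 scaled FPKM in control flies (1.12, SE 0.14, adjusted p = 3.64e-05, limma). GstZ1, of the zeta class that acts in tyrosine breakdown, fell by 0.47 (SE 0.10, adjusted p = 0.00259), and Mgstl, the microsomal enzyme gene, fell by 0.18 (SE 0.051, adjusted p = 0.013). None of the 12 was called in the difference between responses. In normoxia GstT1 was higher in knockdown flies (0.17, SE 0.043, adjusted p = 0.0149, limma) and 3 genes were lower, GstZ1 (-0.47, SE 0.10, adjusted p = 0.00781) and GstO3 (-0.44, SE 0.14, adjusted p = 0.0455) among them. Thus 4 of 12 were called there, beside 16.0% of all genes tested in either direction.

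**Figure D5:**
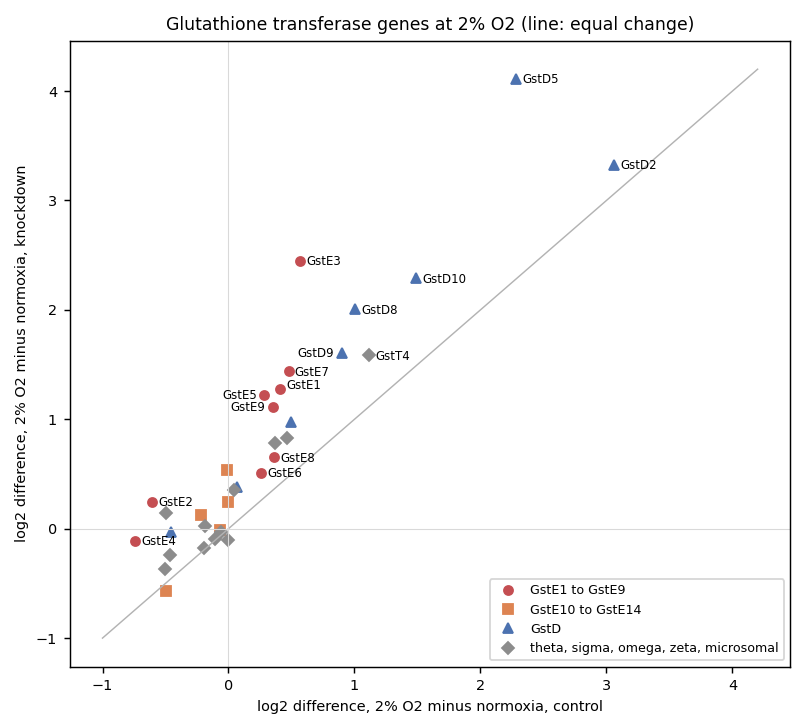
Log2 difference between 2% O2 and normoxia in control flies (x axis) and in knockdown flies (y axis) for each glutathione transferase gene tested, by class, with a grey line where both are equal. GstE3 lies at 0.57 and 2.45, far above the line, and GstD2 lies at 3.06 and 3.33. GstD5 and GstD8 are drawn although they reached the filter only through the 2% O2 groups.

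Of 9 genes that supply and export glutathione 8 were tested, among them GSS and CG32495, whose levels were equal in 16 of the 18 libraries and within 0.181% in the others. With this pair counted as 1, 2 of 7 rose and 1 fell in control flies at 2% O2, 5 of 7 rose in knockdown flies, and 3 responded more strongly in knockdown flies, beside 30.1%, 55.4% and 7.64% of all genes called in either direction. Gclm, the modifier subunit of the enzyme that starts glutathione synthesis, fell in control flies from 161 to 135 scaled FPKM (-0.25, SE 0.046, adjusted p = 0.000608, limma) and was at 169.7 in normoxia and 169.6 at 2% O2 in knockdown flies (difference between responses 0.25, adjusted p = 0.028). CG32495 and GSS, glutathione synthase genes, both rose by 0.21 in control flies (SE 0.064, adjusted p = 0.0247 for the former), and CG1492, a predicted gamma-glutamyl transferase gene, by 0.37 (SE 0.086, adjusted p = 0.00451). In normoxia CG17636 was higher (0.79, SE 0.14, adjusted p = 0.00298, limma) and CG4829 lower (-0.38, SE 0.12, adjusted p = 0.0469) in knockdown flies, beside 16.0% of all genes tested called in either direction.

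Of 15 genes of the Keap1-cnc pathway and its known targets, 8 rose and none fell in control flies at 2% O2, 9 rose and none fell in knockdown flies, and 4 responded more strongly in knockdown flies. Of all genes tested 30.1%, 55.4% and 7.64% were called in either direction in these comparisons. The share called higher in knockdown flies at 2% O2 was 28.5% of all genes tested, beside 9 of 15 here. The medians were 0.13 and 0.25, below those of the GstE genes. Prx2540-1 (10.3 to 60.1 scaled FPKM, 2.46, SE 0.20, adjusted p = 1.01e-06, limma) and Prx2540-2 (16.2 to 80.2, 2.25, SE 0.17, adjusted p = 4.17e-07), a pair of near-identical peroxiredoxin genes, had the smallest adjusted p in control flies. Their levels were equal in 0 of 18 libraries and differed by up to 74.8% of the Prx2540-1 level. How reads shared by this pair were assigned is not given. Cyp12d1-p, a cytochrome P450 gene induced by insecticides, rose by 0.70 (SE 0.13, adjusted p = 0.000684). The regulator cnc itself was lower in knockdown flies in normoxia (-0.19, SE 0.037, adjusted p = 0.00461), as were the catalase gene Cat (-0.46, SE 0.11, adjusted p = 0.0131) and Cyp6g1, a P450 gene known for DDT resistance (-0.67, SE 0.18, adjusted p = 0.0214). In that comparison 4 of the 15 were lower and 1 was higher, beside 2 lower and none higher among the 9 GstE genes. Of all genes tested 16.0% were called in either direction there and 10.1% as lower.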

How the data were processed

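Poly-dT-selected RNA was read on the BGISEQ-500 instrument, per the labels' protocols. The authors deposited 1 table of FPKM values per library. TopHat2, HTSeq and Cufflinks and the BDGP6 build are named per the submitters' processing notes, and their versions are not given in the sources used here. Groups were taken from the titles and genotypes, and the series' design text calls the samples biological triplicates.

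Tables were joined by gene ID. FPKM was divided by median-of-ratios factors over 9068 genes above 1 FPKM in every library, and the 9921 genes averaging 1 FPKM or more over the libraries entered the test on log2(scaled FPKM + 1), a scale that understates changes of low genes. limma 3.58.1 in R 4.3.3 fitted 6 group means over 18 libraries with a trended, robust variance, with the Benjamini-Hochberg adjustment made separately in each of 10 comparisons. The fit was tested on simulated data. Tables were read with Python 3.11.15 and pandas 2.3.3. Coordinates in the files counted from 0 at the start and are printed counting from 1.

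Depth was estimated from low values of 4182 single-transcript genes of 1000 to 3000 bp: after taking 215 bases off each length, 95.7 to 98.2% of 638 to 723 values per library lay within 0.05 of a whole number of reads, where offset and depth were chosen to make this share largest. Read numbers of the shorter GstE genes are therefore approximate, and none is given for GstE8, which has 2 transcripts.

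All 9 members are reported with full statistics where called, and in normoxia between genotypes and in control flies at 2% O2 whether called or not. Of each related gene list, the 3 called genes with the smallest adjusted p in those 2 comparisons are named. Members, lists and tests were chosen with earlier results of these data known. Of 109 list entries, 108 were found in the tables. The alternatives changed the pseudocount (0.1 or 5), the filter (none, or an average of 5 FPKM or more), the scaling (none, or quantile normalisation), the model (replicate number as a block, or the compared groups alone) and the libraries (each left out in turn).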

Additional observations from a re-analysis of the deposited data

Results flagged for a closer look

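The responses to 2% O2 of 5 GstE genes differed between knockdown and control flies in the limma test of the difference itself, by 0.86 on the log2 scale for GstE1, 1.88 for GstE3, 0.94 for GstE5, 0.26 for GstE6 and 0.96 for GstE7. All 5 were larger in knockdown flies. In each of the 5 genes all 3 knockdown 2% O2 libraries lay above the mean of the knockdown normoxia libraries. This follows from their knockdown groups not overlapping, as in 62.3% of all genes tested in either direction, and is a description only. All 3 control 2% O2 libraries likewise lay above the control normoxia mean in each of the 5, so this trait was shared by both genotypes. Of the fat body markers, 4 of 6 tested rose at 2% O2 in each genotype, with none lower in control and 1 lower in knockdown flies. The 6 include Lsp2, which was tested only through its level in the 2% O2 groups. Of all genes tested 30.1% were called in either direction in control and 55.4% in knockdown flies. Malpighian tubule markers were mixed, with 2 of 9 higher and 3 lower in control and 3 higher and 3 lower in knockdown flies. Of the midgut markers, 1 of 7 was called in the difference between responses, as higher, with a median of 0.71 over the list. The part of these tissues in the GstE differences was not tested.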

How the results depend on the processing

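The 7 members called in knockdown flies at 2% O2 stayed 7 under every alternative run, and the difference between responses to 2% O2 gave 4 to 7 (main 5), with 5 to 7 when single libraries were left out. Between genotypes in normoxia the count of called members was 2, but 1 with a pseudocount of 5, with no filter or with quantile normalisation, and 0 to 4 without single libraries. At 6% O2 it was 2, but 1, with GstE9 lost, with a pseudocount of 5, no filter, FPKM as deposited, quantile normalisation, or the compared groups alone, and 0 to 2 without single libraries. Leaving out libraries gave 4 to 6 at 2% O2 between genotypes and 5 to 6 for the average over oxygen levels, 4 to 7 in control flies at 2% O2, and 0 in each 6% O2 response. With the compared groups alone, GstE5 and GstE8 between genotypes at 2% O2 and GstE3 and GstE4 in control flies at 2% O2 lost their calls and GstE9 in control flies gained one (adjusted p = 0.0313, limma). The difference between genotypes in normoxia turned sign for GstE6 with FPKM as deposited (0.0064) and quantile normalisation (0.0639) and from -0.024 to 0.0104 without single libraries, and for GstE8 with FPKM as deposited (0.0069) and from -0.0633 to 0.0707 without single libraries. The cause of these changes was not tested.

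Replicate numbers did not pair the libraries: deviations of same-numbered libraries correlated between -0.325 and 0.25, and 3 of 18 libraries were closest to their own number. With a replicate block, the members called between genotypes at 6% O2 went from 2 to 1, no other GstE count changed, and the genes called in knockdown flies at 6% O2 went from 62 to 31. Over all genes, the compared groups alone gave 1352 in place of 2448 calls between genotypes at 6% O2 and 1197 in place of 2000 at 2% O2. Control flies at 6% O2 gave 0 calls, but 25 with quantile normalisation, 2 with the compared groups alone and 1 with no filter. The difference between responses to 6% O2 gave 0, but 27 with quantile normalisation and 5 with a mean of at least 5 FPKM. Single libraries moved the calls between genotypes from 614 to 2235 in normoxia, 892 to 2735 at 6% O2 and 1204 to 1979 at 2% O2, those of knockdown flies at 6% O2 from 9 to 89, and those of the difference at 2% O2 from 332 to 1301. The share of calls that were higher depended on scaling: between genotypes it was 36.8% in normoxia but 53.6% with quantile normalisation, and 57.8% at 2% O2 but 43.6% with FPKM as deposited. For the response to 2% O2 in knockdown flies it was 51.4%, but 41.3% as deposited and 38.6% with quantile normalisation, and for the difference between responses 71.1%, but 58.8% and 44.8%. Depth limits GstE2 most, at 24 to 60 reads a library.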
